A study of Mus musculus with 50 samples.

Results

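The 10 acute-phase genes Saa1, Saa2, Saa3, Saa4, Orm1, Orm2, Hp, Hpx, Lcn2 and Apcs were taken by name from a table of liver mRNA, and all 10 of the listed genes were present among its 12185 genes. The acute phase is the change in plasma proteins that the liver makes after infection or injury. Interleukin 6 acting through STAT3, interleukin 1 acting through NF-kB, and the C/EBP factors drive many of its genes in hepatocytes. Serum amyloid A, the product of Saa1 and Saa2, is the acute-phase protein that can rise the most in mice, while many others, such as haptoglobin and hemopexin, are made at a high level in healthy liver as well.

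The livers came from male mice of a cross between a pair of chromosome substitution strains, in which chromosomes 4 and 6 of A/J replaced those of C57BL/6J. Every animal therefore carried a C57BL/6J background with A/J alleles segregating on chromosomes 4 and 6, and each had its own combination of them. The labels call the animals F2 and adult, whereas the study's methods describe N2 backcross offspring that were fasted overnight and killed at 5 weeks of age. No animal was given an inflammatory stimulus in the sources used here, no genotype was used here, and all 50 libraries form 1 group. Of the listed genes only Orm1 and Orm2 lie on a segregating chromosome. The title of each library holds a library number and an animal number, and 28 libraries are numbered 1 to 30 and 22 are numbered 31 to 59. Nothing in the labels says what the gap between those number ranges stands for. 4 libraries share an animal number with another library (numbers 8 and 10, and numbers 22 and 55), which left 48 animal numbers. Between 11965594 and 29976557 reads were counted in a library, and a count of 3 reads corresponded to a value of 0.0951 to 0.259, so each listed gene was well above that floor, which covers counting error only, in every library. Markers of hepatocytes made up a summed value of 85233 to 135361 per library, and 2 of 9 listed neutrophil genes had values here, with a sum of 0.540 to 4.00.

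The genes lie in 6 places of the mouse genome (coordinates of GRCm38, GENCODE M21). Saa3, Saa4, Saa1 and Saa2 form a cluster on chromosome 7, in which Saa1 spans 46740497 to 46742980 on the minus strand and Saa2 spans 46751790 to 46754313 on the plus strand. Hpx lies on the same chromosome at 105591613 to 105600137. Orm1 (63344560 to 63348163), Orm3 (63356162 to 63359511) and Orm2 (63362449 to 63365878) follow each other on the plus strand of chromosome 4. Orm3 is not one of the listed genes and is given beside them as the third copy of the family. Hp lies on chromosome 8, Lcn2 on chromosome 2 and Apcs on chromosome 1.

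Copies of a gene that share sequence can also share reads, which was not measured here. Of the 579 stretches of 31 bases in the Saa1 transcript, 155 (26.8%) also occur in Saa2, and the coding transcripts of both genes were 93.9% identical over their alignment. Saa3 shared 28 of its 525 stretches with Saa1, whereas Saa4 shared 0 of 2025. Orm1 and Orm2 shared 205 of 745 stretches (27.5%). How the authors' counting placed reads that match more than 1 gene is not given in the sources used here, so the low values of Saa2 and Orm2 are uncertain where Saa1 or Orm1 is high.

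The bases just upstream of these genes are shown for 2 pairs of neighbouring copies and for Lcn2, because the copies differ in level while their promoters are alike. RefSeq promoter windows (GRCm38.p6) were matched for 9 of the 11 genes, counting Orm3. No window was available for Orm1 or Hp, so neither was searched for any pattern. Each line gives the 250 bases before the RefSeq start, 5′ to 3′ on the strand of the gene, and positions are counted from that start. The RefSeq starts can differ from the GENCODE coordinates given above. The Saa2 window runs past the GENCODE start at 46751790, and the Lcn2 window lies inside the GENCODE gene (32384633 to 32388252, minus strand). Capitals mark matches to a C/EBP pattern, TTNNGNAA, or to an NF-kB pattern, GGRRNNYYCC, searched on both strands. In these patterns R is A or G, Y is C or T, and N is any base. The windows are chr7:46742981-46743230 (minus strand) for Saa1, chr7:46751583-46751832 (plus) for Saa2, chr4:63362199-63362448 (plus) for Orm2, chr4:63355908-63356157 (plus) for Orm3 and chr2:32387740-32387989 (minus) for Lcn2.
Saa1: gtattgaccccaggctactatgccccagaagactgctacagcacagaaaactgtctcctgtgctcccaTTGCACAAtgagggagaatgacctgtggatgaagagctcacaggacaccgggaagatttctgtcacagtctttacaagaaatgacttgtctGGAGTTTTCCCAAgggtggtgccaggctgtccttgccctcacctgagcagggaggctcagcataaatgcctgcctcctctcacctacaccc
Saa2: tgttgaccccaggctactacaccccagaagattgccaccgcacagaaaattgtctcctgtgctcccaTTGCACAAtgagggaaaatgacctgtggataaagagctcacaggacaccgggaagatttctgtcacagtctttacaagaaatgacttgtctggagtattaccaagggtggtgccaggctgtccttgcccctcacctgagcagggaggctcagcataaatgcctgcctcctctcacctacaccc
Orm2: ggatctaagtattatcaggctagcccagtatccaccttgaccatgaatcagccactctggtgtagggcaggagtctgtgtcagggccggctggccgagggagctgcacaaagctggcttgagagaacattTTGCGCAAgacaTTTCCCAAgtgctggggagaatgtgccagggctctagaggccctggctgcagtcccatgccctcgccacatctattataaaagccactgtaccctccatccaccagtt
Orm3: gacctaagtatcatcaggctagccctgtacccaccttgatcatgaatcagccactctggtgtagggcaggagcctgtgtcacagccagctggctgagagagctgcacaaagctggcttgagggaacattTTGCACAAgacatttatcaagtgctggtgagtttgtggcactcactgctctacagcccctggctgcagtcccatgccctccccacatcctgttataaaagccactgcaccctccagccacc
Lcn2: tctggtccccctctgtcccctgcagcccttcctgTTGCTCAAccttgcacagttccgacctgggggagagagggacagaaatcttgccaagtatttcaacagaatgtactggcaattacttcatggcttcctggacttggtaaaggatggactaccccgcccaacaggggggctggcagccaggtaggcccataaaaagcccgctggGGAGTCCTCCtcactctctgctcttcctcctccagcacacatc

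The Saa1 and Saa2 windows had 238 identical bases, 11 mismatches and 2 gap bases. Both held the C/EBP match TTGCACAA, at -182 to -175 bases from the start in Saa1 and at -183 to -176 in Saa2. Saa1 also held an NF-kB match, GGAGTTTTCC at -91 to -82, which overlapped another C/EBP match at -86 to -79, and neither pattern matched at that place in Saa2. The Orm2 and Orm3 windows were 85.9% identical. Orm2 held C/EBP matches at -120 to -113 and at -108 to -101, and Orm3 held 1, at -121 to -114. Lcn2 held a C/EBP match at -216 to -209 and the NF-kB match GGAGTCCTCC at -43 to -34. Among 32851 promoter windows of this length, 36.8% held the C/EBP pattern and 9.55% the NF-kB pattern, so a C/EBP match is common. The STAT pattern TTCNNNGAA (7.02% of all windows) was found in Apcs alone among the 9 windows, at -244 to -236, and the glucocorticoid receptor consensus (0.387% of all windows) in 0 of them. These matches are letters in a window, and no binding was measured.

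Levels are given as the authors' normalised CPM values, reads scaled to a common library size. Haptoglobin, the protein that binds free hemoglobin, and hemopexin, which binds free heme, were the most abundant of the products. Hp ran from 2421 to 6084 with a median of 3717 (mean 3687 ± 662, SD, n = 50), and Hpx ran from 2813 to 5737 with a median of 3203 (mean 3464 ± 637). Their means ranked 33 and 38 among all genes. Both were expressed within about the same range in every library, with a highest value 2.51 and 2.04 times the lowest.

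The orosomucoids are lipocalin-fold plasma proteins that bind drugs and lipids. Orm1 ran from 158 to 881 with a median of 418 (mean 420 ± 123.7, SD, n = 50). Orm2 was far lower, from 3.64 to 70.0 with a median of 7.90 (mean 10.5 ± 10.9). Orm3 ran from 0.292 to 6.96 with a median of 1.78. The neighbouring copies therefore differed widely in level, with Orm1 above Orm2 in all libraries.

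Serum amyloid A associates with high-density lipoprotein. Saa4 encodes the form that is made constitutively, and it ran from 76.9 to 321 with a median of 212 (mean 209 ± 57.1, SD, n = 50). Saa1 ran from 13.95 to 660 with a median of 37.5 (mean 67.6 ± 110), and Saa2 from 3.48 to 193.5 with a median of 7.78 (mean 14.5 ± 29.8). In both genes the SD exceeded the mean, since a few libraries held most of the spread. Saa3, which in other tissues is made largely by macrophages and fat cells, stayed between 1.88 and 8.24 with a median of 4.29 (mean 4.47 ± 1.45), on 23 to 164 reads a library. Its counting error alone came to 14.5% of the variance between libraries, against 2.13% or less for the other 9 genes.

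Lcn2 encodes lipocalin 2, which withholds iron from bacteria by binding their siderophores, and it ran from 3.77 to 52.5 with a median of 10.1 (mean 13.4 ± 9.92, SD, n = 50). Apcs encodes serum amyloid P, a pentraxin that is the main acute-phase pentraxin of mice, and it ran from 32.5 to 108 with a median of 51.7 (mean 52.8 ± 12.98). Crp, the related pentraxin that dominates the human response, ran from 197.7 to 330.6 in these livers.

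Per kilobase of coding transcript, the order of the means was Hp (2741 ± 492), Hpx (2311 ± 425), Orm1 (542 ± 160), Saa1 (111 ± 180), Saa4 (99.7 ± 27.3), Apcs (54.4 ± 13.4), Saa2 (24.01 ± 49.2), Lcn2 (14.6 ± 10.8), Orm2 (13.5 ± 14.04) and Saa3 (8.05 ± 2.61), each with SD and n = 50. Several neighbours in that order did not differ beyond their spread. Hp was above Hpx in 37 of 50 libraries. Saa1 was above Saa4 in 10 of 50, so its higher mean came from a minority of livers. Saa2 was above Lcn2 in 31, and Lcn2 was above Orm2 in 25. By contrast, Hpx was above Orm1 and Orm1 above Saa1 in all 50 libraries.

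**Figure D1:**
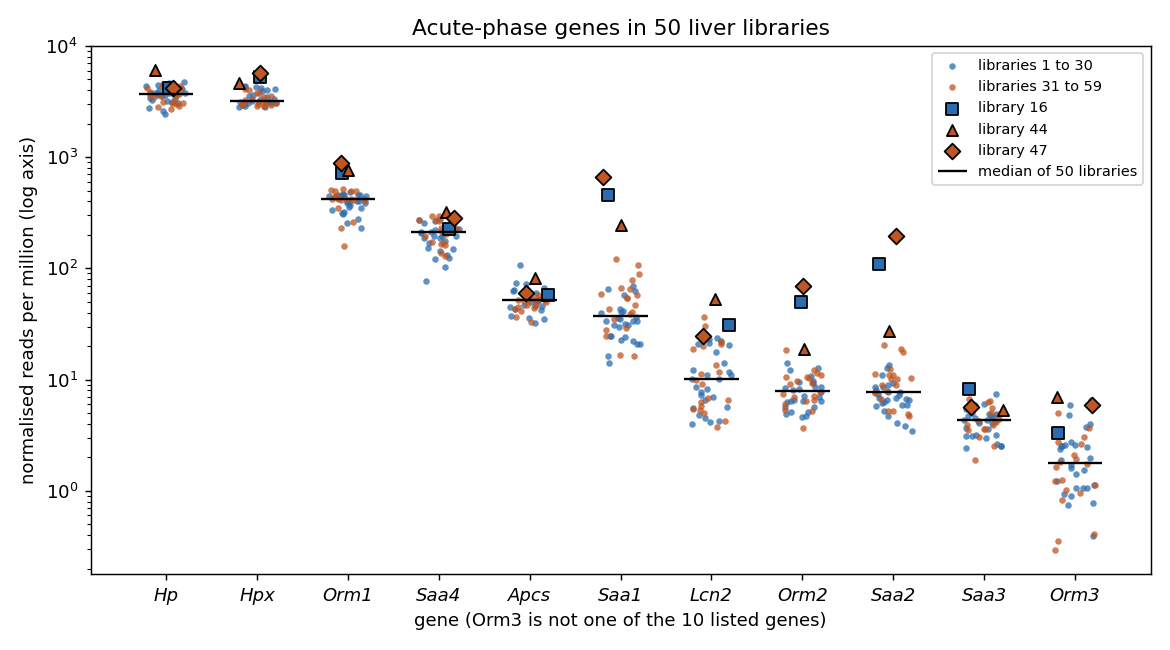
Normalised CPM on a log axis for each acute-phase gene in 50 liver libraries, with each point a library, colours for the library number range, black lines for the medians and outlined symbols for libraries 16, 44 and 47. Libraries 47 and 16 sit far above the rest for Saa1, Saa2 and Orm2, library 44 does so for Saa1 but not for Orm2 (18.9 against 18.5 in the next library), and library 44 holds the top value of Hp (6084).

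The coefficient of variation of a gene was set against that of the 200 genes nearest to it in mean value. Saa2 (205%), Saa1 (162%), Orm2 (104%) and Lcn2 (74.2%) each varied more than all 200 of their neighbours, whose median was between 12.05% and 15.2%. Apcs (24.6%) lay at the 94.0th percentile, Orm1 (29.4%) at the 91.5th, and Saa4 (27.3%) and Saa3 (32.4%) at the 90.5th. Hp (17.95%) and Hpx (18.4%) lay at the 65.5th and 67.0th percentiles, so the most abundant members were also the least variable for their level.

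Libraries 47, 16 and 44 held the highest Saa1 values, 660, 457 and 247.6, and the next highest was 122. These 3 libraries were singled out after their values were seen. They were also the highest 3 for Saa2 (193.5, 110 and 27.3), for Orm1 (881, 714 and 774), for Orm2 (70.0, 49.9 and 18.9) and for Hpx (5737, 5292 and 4626). In library 44, Saa4 (321), Hp (6084), Lcn2 (52.5) and Orm3 (6.96) were each at their highest of 50 and Apcs (81.8) was at its second highest. In libraries 47 and 16 Hp was 11th and 13th highest, at 4168 and 4150, so of these 3 libraries only library 44 was at the top for Hp. Saa3 was second highest in library 16 at 8.22 and ranked 10th and 13th in libraries 47 and 44. Without these 3 libraries the coefficient of variation fell to 54.3% for Saa1, 43.9% for Saa2 and 35.2% for Orm2, whereas it stayed at 65.0% for Lcn2.

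**Figure D2:**
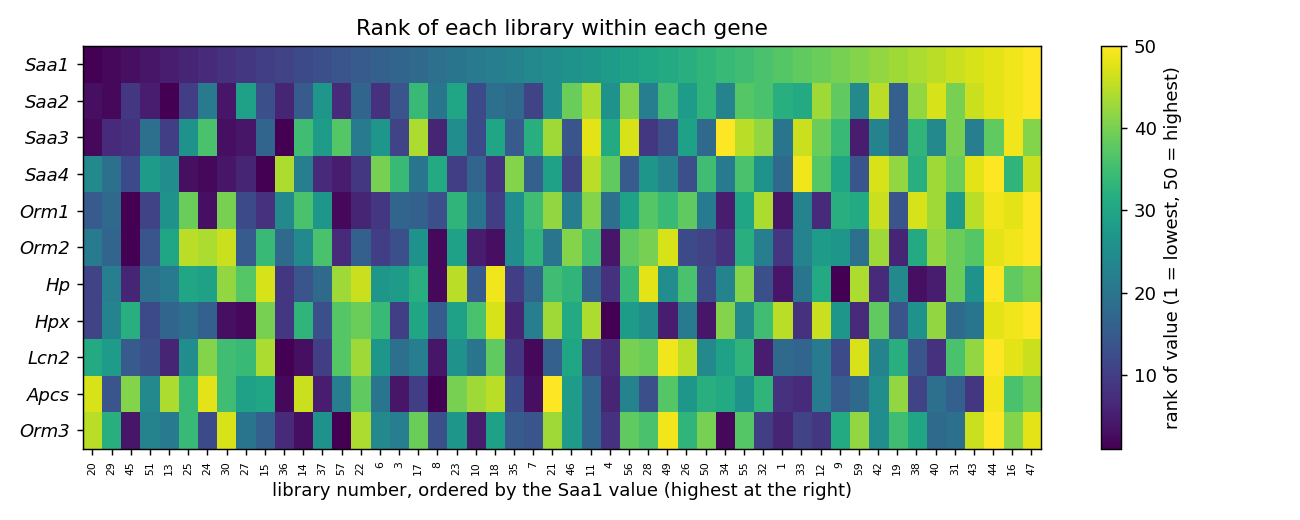
Rank of each of 50 libraries (columns, ordered by Saa1 from lowest at the left to highest at the right) within each gene (rows), where 50 marks the highest value. The 3 columns at the right, libraries 44, 16 and 47, are bright in the rows of Saa1, Saa2, Orm1, Orm2 and Hpx, while over the other columns the row of Saa2 follows the Saa1 order most closely.

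To see which acute-phase genes moved together from liver to liver, log2 values were compared over the 45 pairs of the 10 genes, with 100000 permutations of the libraries and Benjamini-Hochberg adjustment over the pairs. 42 of 45 pairs had a positive Pearson r, with a median of 0.31, and the median Spearman rho was 0.23. The adjusted p was under the threshold of 0.05 for 22 pairs by Pearson and for 15 by Spearman, and those 15 were also among the 22. Without libraries 16, 44 and 47 the median r was 0.11, and pairs with r above 0.5 went from 11 to 4. All genes of a library share its normalisation and its depth, and in bulk liver fewer cells of a type and less RNA per cell cannot be told apart.

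Saa1 and Saa2 were the closest pair, with r = 0.91 (adjusted permutation p = 7.5e-05) and rho = 0.82. The relation held at r = 0.84 without the 2 libraries farthest in Saa1 (47 and 16), and at 0.90 and 0.91 within the libraries numbered 1 to 30 and 31 to 59. Saa4, the constitutive form from the same cluster, followed Saa1 at r = 0.50 and rho = 0.59, and r was 0.51 without the 3 high libraries. Saa3 followed Saa1 at r = 0.48 and rho = 0.46, and r was 0.41 without them. Saa3 and Saa4 had no detectable relation with each other (r = 0.19, adjusted permutation p = 0.25, and rho = 0.21). The closest pair of the cluster was thus also the one that shares the most sequence.

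Orm1 followed Saa1 at r = 0.63 and rho = 0.51 (adjusted permutation p of rho = 0.0011), but r was 0.39 within libraries 1 to 30 and 0.78 within 31 to 59. Orm2 gave r = 0.68 and rho = 0.29, and its r dropped to 0.33 without the 2 farthest libraries and to 0.18 without all 3. Hpx gave r = 0.59 and rho = 0.31, and r was 0.17 without the 3. The relations of Orm2 and Hpx with Saa1 therefore rested on those libraries. Part of that of Orm1 was present without the 3 (r = 0.36, rho = 0.41). The rho of Orm1 with Saa1 was 0.18 within libraries 1 to 30 and 0.78 within 31 to 59. Hp (r = 0.19, rho = 0.02) and Apcs (r = 0.06, rho = -0.14) had no detectable relation with Saa1, at adjusted permutation p of r = 0.25 and 0.69.

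Hp, which had no detectable relation with Saa1, varied with Lcn2. Hp and Lcn2 correlated at r = 0.76 and rho = 0.76 (adjusted permutation p of r = 7.5e-05), with r = 0.71 without the 3 high libraries and r = 0.72 and 0.82 within the library number ranges. Apcs followed Hp at r = 0.39 and Lcn2 at r = 0.38, both under the threshold by Pearson and by Spearman. Lcn2 also correlated with Saa1 (r = 0.38, adjusted permutation p = 0.015), Saa2 (0.35, 0.022) and Orm2 (0.44, 0.0028) by Pearson. By Spearman these 3 did not pass (rho of 0.23, 0.22 and 0.30), and without the 3 high libraries r was 0.10, 0.058 and 0.26. Saa4 and Hp gave r = -0.27 and rho = -0.32, with adjusted permutation p of 0.11 and 0.071. Orm1 and Orm2 correlated with each other at r = 0.70 and rho = 0.65, and at 0.51 without the 3 libraries.

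**Figure D3:**
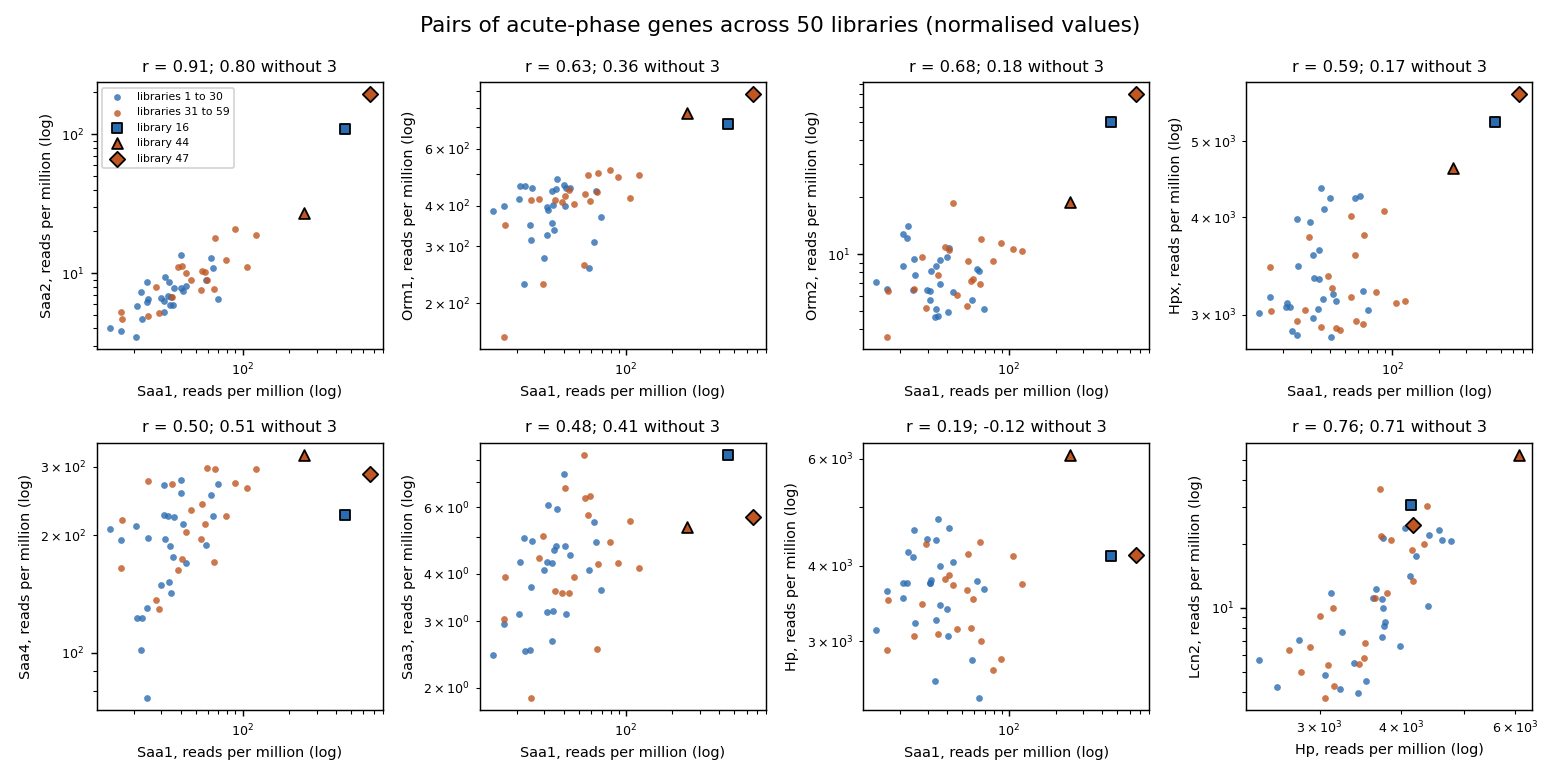
Normalised values of 8 gene pairs on log axes in 50 libraries, with colours for the library number range and outlined symbols for libraries 16, 44 and 47. Each panel gives Pearson r over all libraries and without those 3, which goes from 0.68 to 0.18 for Saa1 with Orm2 and from 0.76 to 0.71 for Hp with Lcn2.

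**Figure D4:**
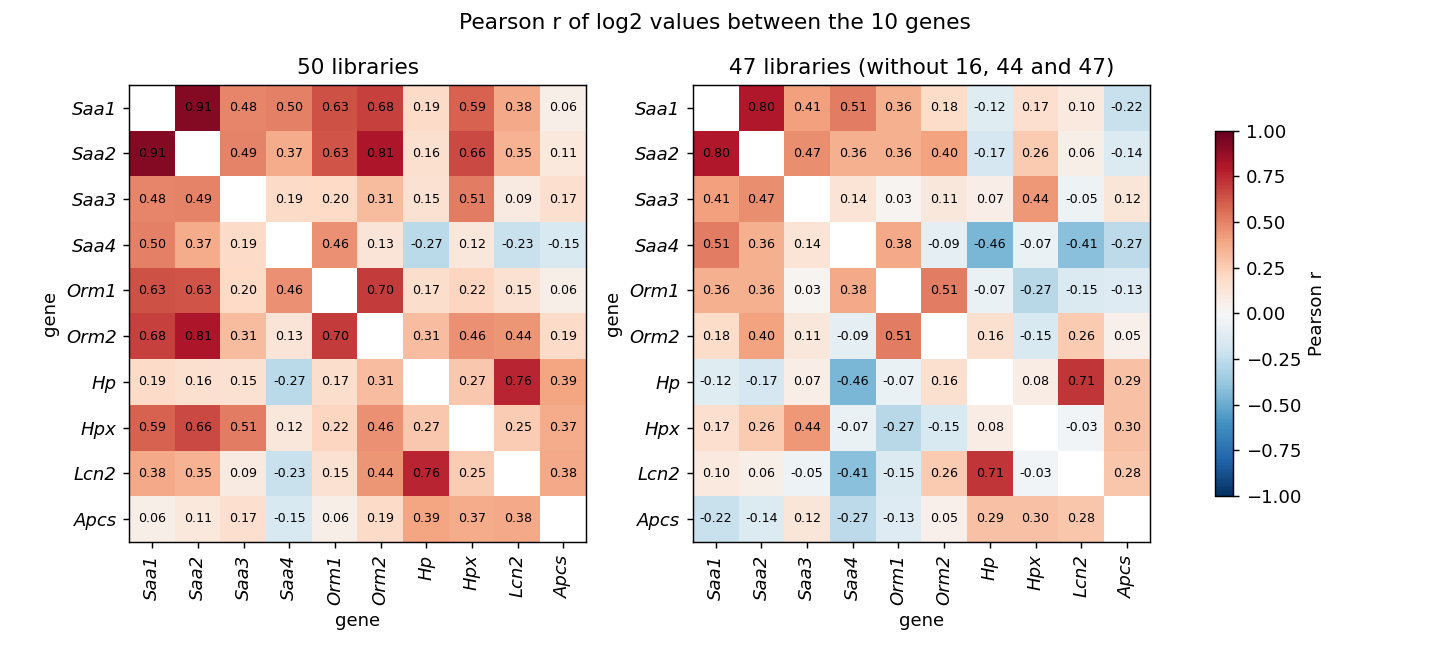
Pearson r of log2 values for each pair of the 10 genes, over 50 libraries at the left and over 47 libraries at the right. The block of Saa1, Saa2, Orm1, Orm2 and Hpx fades at the right, while Saa1 with Saa2 stays at 0.80 and Hp with Lcn2 at 0.71.

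The same question was then put to all genes with limma, by fitting log2(value + 0.5) of each gene with a mean value of at least 1 on log2 Saa1. Slopes are in log2 units per log2 unit of Saa1, the added 0.5 makes those of low genes too small, and p-values were adjusted over all 11435 genes tested by Benjamini-Hochberg with a threshold of 0.05. Of these genes 14 rose with Saa1 (0.122%) and 1 fell (0.00875%). Of the other 9 listed genes, 4 rose and 0 fell. They were Saa2 with a slope of 0.84 ± 0.05 (SE; adjusted p = 9.8e-18), Orm2 with 0.46 ± 0.07 (adjusted p = 5.4e-05), Orm1 with 0.24 ± 0.04 (adjusted p = 0.00085) and Hpx with 0.13 ± 0.03 (adjusted p = 0.0083). A doubling of Saa1 thus went with a large part of a doubling of Saa2 and with a small rise of Hpx. Saa4 (0.20 ± 0.05, adjusted p = 0.060) and Saa3 (0.19 ± 0.05, adjusted p = 0.074) lay just above the threshold. Lcn2 (0.32 ± 0.11, adjusted p = 0.26), Hp (0.04 ± 0.03, adjusted p = 0.68) and Apcs (0.02 ± 0.04, adjusted p = 0.92) did not pass. Leaving out library 8, 16, 36 or 51 alone brought Saa4 under the threshold.

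The median slope of the 9 genes was 0.20, against 0.00 over all genes. The calls changed with the high libraries. Without libraries 16, 44 and 47, a choice made after seeing the data, 95 genes rose (0.831%), and of the 9 listed genes only Saa2 (slope 0.60, adjusted p = 3.4e-08) and Saa4 (0.31, adjusted p = 0.028) passed. In that fit Orm1 had a slope of 0.17 (adjusted p = 0.15), Orm2 0.12 (0.51) and Hpx 0.04 (0.58). Leaving out library 16 or library 47 alone was enough to lose the call of Hpx, whose adjusted p rose to as much as 0.11. Within the library number ranges, Saa2 passed in both (slopes of 0.84 and 0.85), while Orm1 (0.33) and Orm2 (0.55) passed only within libraries 31 to 59.

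Whether the slope on Saa1 differed between the library number ranges was tested with an interaction term in limma. For Orm1 the slopes differed by 0.19 ± 0.09 (unadjusted p = 0.031, adjusted p = 0.40) and for Orm3 by 0.44 ± 0.20 (adjusted p = 0.40). Of 11435 genes 0 passed (0%), with 1336 at an unadjusted p under 0.05, and edgeR's quasi-likelihood test on the whole reads also called 0, with 1388. Of the 9 listed genes 0 passed, and 1 had an unadjusted p under 0.05.

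The 5 genes with the highest r with Saa1 outside the list were C4b (0.71) and Hc (0.70), which encode complement components 4B and 5, C9 (0.63), which forms part of the membrane attack complex, Ldhd (0.62), a D-lactate dehydrogenase, and Clu (0.60), the chaperone clusterin. All 5 were among the genes that rose with Saa1, with slopes of 0.17 ± 0.02 for C4b, 0.20 ± 0.03 for Hc, 0.29 ± 0.05 for C9, 0.19 ± 0.03 for Ldhd and 0.10 ± 0.02 for Clu. Without libraries 16, 44 and 47, r was 0.55 for C4b, 0.64 for Hc, 0.62 for C9, 0.54 for Ldhd and 0.37 for Clu, against 0.18 for Orm2 and 0.17 for Hpx. The lowest r were those of Slc17a1 (-0.53), a phosphate and urate carrier, Ptma (-0.51), prothymosin alpha, and Ggct (-0.51), an enzyme of glutathione breakdown. Of these Slc17a1 was the 1 gene that fell with Saa1 (slope -0.12 ± 0.03, adjusted p = 0.047 by limma).

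Other genes of the acute phase were counted from lists. Of 29 tested other genes that rise in the acute phase, 1 rose with Saa1 and 0 fell, and the riser was C4b. The median slope of these 29 was 0.03, against 0.00 over all genes. Crp had a slope of 0.02 (adjusted p = 0.79) and Orm3 of 0.25 (adjusted p = 0.34). Of 18 genes that fall in the acute phase 0 passed in limma, with 5 at an unadjusted p under 0.05 and 0 by edgeR. Over all 11435 genes 1157 had an unadjusted p under 0.05 in limma. Alb, the gene of albumin, had a slope of -0.08 (adjusted p = 0.19 by limma). Among the most abundant of the others, Ahsg (fetuin A) had -0.08, Apoa1 (the main protein of high-density lipoprotein) -0.05 and Ttr (transthyretin) -0.01. Of 28 genes of IL-6, IL-1 and STAT3 signalling 0 passed, with 1 at an unadjusted p under 0.05 and 0 by edgeR, and of 18 glucocorticoid-responsive genes 0 passed, again with 1 and 0. Since 0.122% of all genes rose and 0.00875% fell with Saa1, a count of 0 in lists of this size shows nothing particular to them. Stat3 had a slope of 0.02 (adjusted p = 0.90 by limma) and Socs3, a target and inhibitor of STAT3, of 0.07 (adjusted p = 0.83), both chosen after their values were seen.

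Markers of the cell types in liver were set beside these relations. Of 41 marker genes tested for 10 cell types 0 passed with Saa1 in limma and 0 by edgeR. In limma 10 of them had an unadjusted p under 0.05, against 1157 of 11435 over all genes. All 10 Kupffer cell markers had a positive slope, of 0.02 to 0.10, with 5 at an unadjusted p under 0.05 in limma. Their summed value ran from 344 to 622, with its highest value in library 47 and 556 and 525 in libraries 16 and 44. The summed value gave r = 0.32 and rho = 0.11 with Saa1. The summed hepatocyte markers gave r = -0.37 with Saa1, and libraries 16, 44 and 47 held 85756, 125959 and 92779. Most of that sum was Alb (mean 76224, r = -0.43 with Saa1), which is also on the list of genes that fall. Of the 8 hepatocyte markers 3 had a positive slope, so the sum does not stand for all of them. The summed red blood cell markers gave r = -0.29 and rho = -0.42 with Saa1, and all 4 had slopes below 0, of -0.17 to -0.14, with 2 at an unadjusted p under 0.05. The part of these markers in the relations with Saa1 was not tested.

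Haptoglobin was used in place of Saa1 as a regressor, to ask which genes follow an acute-phase gene that had no detectable relation with Saa1. With Hp, 1264 of 11435 genes rose (11.1%) and 1401 fell (12.3%), so a far larger part of the transcriptome followed Hp than Saa1. Of the 9 other listed genes 2 rose and 0 fell, which is close to that background. Lcn2 had a slope of 2.78 ± 0.33 (adjusted p = 1.8e-07 by limma) and Apcs of 0.50 ± 0.16 (adjusted p = 0.023), while Orm2 (0.89, adjusted p = 0.083), Hpx (0.25, adjusted p = 0.15), Saa1 (0.82, adjusted p = 0.32) and Saa4 (-0.46, adjusted p = 0.14) did not pass. Orm3 also rose, at 1.29 (adjusted p = 0.017). Lcn2 thus changed about 2.8 log2 units per log2 unit of Hp, the steepest of the listed genes.

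Among the 29 other rising acute-phase genes 13 rose with Hp and 2 fell, with a median slope of 0.27 against 0.01 over all genes. The most abundant risers were the 3 chains of fibrinogen, the clotting protein, with slopes of 0.33 for Fga (adjusted p = 0.022 by limma), 0.31 for Fgb (0.0081) and 0.39 for Fgg (0.00043), and Itih4, an inter-alpha-trypsin inhibitor heavy chain, with 0.38 (0.018). The 2 that fell, named after their values were seen, were Slc39a14 (-0.42), a zinc and iron carrier, and Cfb (-0.35), complement factor B. Of the 18 genes that fall in the acute phase 6 rose and 1 fell, so genes of both lists rose with Hp. Alb (0.45), Ahsg (0.33), Rbp4 (0.28), the carrier of retinol, and Kng1 (0.34), kininogen, were the most abundant of those that rose. Igf1 (-0.45), the growth factor, fell. Of the 8 hepatocyte markers 3 rose with Hp and 0 fell, and their sum, most of which was Alb, gave r = 0.57. All 4 red blood cell markers rose as well, with slopes of 0.84 to 1.06, and their sum, which ran from 34.99 to 255.1, gave r = 0.39. S100a9, the 1 neutrophil marker tested, rose too (0.90, adjusted p = 0.016 by limma), and the sum of the 2 neutrophil markers gave r = 0.40. The part of these markers in the relations with Hp was not tested.

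Of the 28 signalling genes 3 rose with Hp and 5 fell, which is near the 11.1% and 12.3% over all genes. Among those that rose, named after their values were seen, were Socs3 (0.97, adjusted p = 0.034 by limma) and Tnfrsf1a (0.40, 0.0053), a receptor of tumor necrosis factor. Hnf4a (-0.56), a hepatocyte transcription factor, Lifr (-0.65), the receptor of leukemia inhibitory factor, Il1rap (-0.25), part of the interleukin 1 receptor, and Il6st (-0.33), the shared gp130 receptor subunit, were the most abundant that fell. Of the 18 glucocorticoid-responsive genes 2 rose, the metallothioneins Mt1 (1.25) and Mt2 (1.36), and 1 fell, Tsc22d3 (-1.13), also near those shares.

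Saa4 was also used as the regressor, a choice made after seeing the data. With Saa4, 1412 of 11435 genes rose (12.3%) and 1313 fell. Of the other 9 listed genes 3 rose and 0 fell. The risers were Saa1 (1.25 ± 0.30, adjusted p = 0.0016 by limma), Saa2 (0.85 ± 0.29, adjusted p = 0.028) and Orm1 (0.43 ± 0.12, adjusted p = 0.0057). Saa1 with Saa4 is the same pair that had an adjusted p of 0.060 by limma in the fit on Saa1. The adjustment depends on all genes of a fit, of which 2725 were called here and 15 there. Hp (-0.15) and Lcn2 (-0.48) had slopes below 0 that did not pass (adjusted p = 0.15 and 0.23). All 4 red blood cell markers fell with Saa4, with slopes of -0.77 to -0.68, and their part in these relations was not tested.

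Orm1 lies on chromosome 4, which segregates in this cross, so its relation to other genes was fitted beside Saa1, with both genes as regressors in limma. Of 11434 genes 458 rose with Orm1 at a given Saa1 (4.01%) and 322 fell (2.82%). Of the 8 other listed genes 1 rose and 0 fell. It was Orm2, with 0.78 ± 0.21 log2 units per log2 unit of Orm1 (adjusted p = 0.014), and Orm3 rose too, with 1.18 ± 0.29 (adjusted p = 0.0061). The copies next to Orm1 therefore followed it beyond what they shared with Saa1, and both calls concern genes that share sequence with Orm1. Hpx had a slope of -0.15 (adjusted p = 0.30) and Saa4 of 0.24 (adjusted p = 0.41). With Orm1 as the only regressor, 3.1% of genes rose and 4 of the 9 listed genes did, namely Saa1, Saa2, Saa4 and Orm2.

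The 5 genes outside the list with the highest r with Orm1 were Wfdc21 (0.79), a secreted protein with a whey acidic protein domain, H2-K1 (0.75), a class I histocompatibility gene, and the major urinary protein genes Mup11, Mup16 and Mup1 (0.75, 0.75 and 0.74). Major urinary proteins are lipocalins like the orosomucoids, carry pheromones in mouse urine and are made in large amounts by male liver under growth hormone. On chromosome 4 the smallest p-values beside Saa1 were those of Mup11 (slope 3.70 ± 0.52), Mup15 (5.68 ± 0.81) and Mup16 (3.002 ± 0.46). Their starts lie 1829 to 2686 kb before that of Orm1. The Mup genes are near-identical copies, so the division of reads among them is uncertain.

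Of 728 chromosome 4 genes tested 54 (7.42%) passed with Orm1, the fourth highest share among 20 chromosomes, with a range of 5.10% on chromosome 9 to 8.82% on chromosome 16. Of these 54, 17 were among the 20 Mup genes tested, and of the other 708 genes on the chromosome 37 passed (5.23%). Within 1 Mb of the start of Orm1, 15 genes were tested and 2 passed, which were Orm2 and Orm3. Ambp, a lipocalin gene at 201 kb from Orm1 and expressed at 1537, had a slope of 0.10 (adjusted p = 0.38), and Alad, an enzyme of heme synthesis at 835 kb, had 0.39 (adjusted p = 0.17), both chosen after their values were seen. At 1 to 5 Mb, 17 of 20 Mup genes and 2 of the 16 others passed. The share was 8.54% at 5 to 20 Mb and 4.37% farther away.

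**Figure D5:**
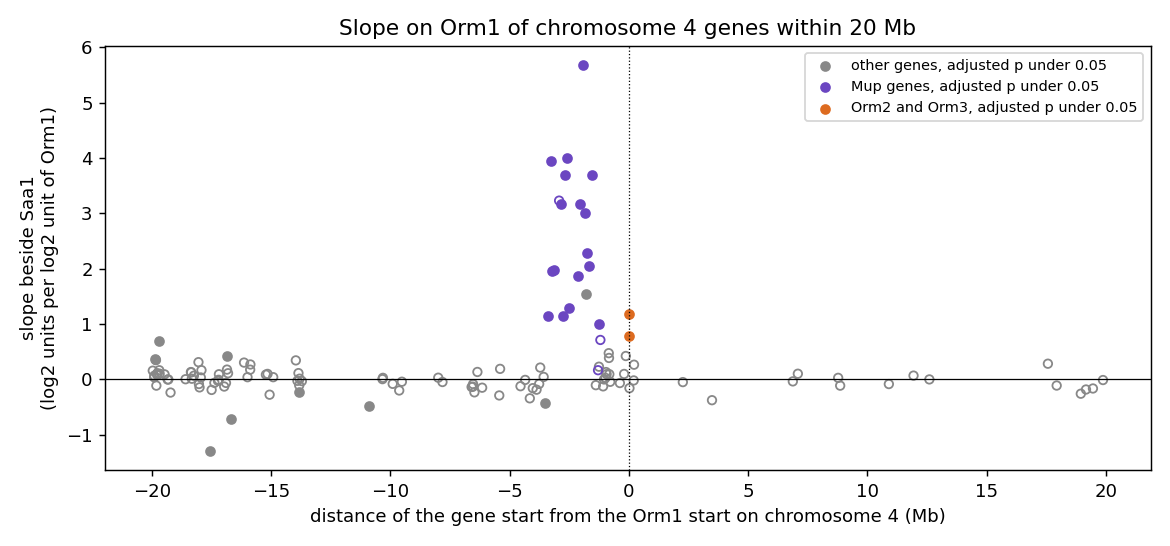
Slope on Orm1 beside Saa1, in log2 units per log2 unit of Orm1, for chromosome 4 genes within 20 Mb, against the distance of each gene's start from that of Orm1. Filled points have an adjusted p under 0.05 and open points do not. The called Mup genes stand in 1 column at 1 to 5 Mb from Orm1, and those with the smallest p lie before it, at negative distances. Orm2 (0.78) and Orm3 (1.18) stand at the position of Orm1.

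Of the 29 other rising acute-phase genes 2 rose with Orm1 beside Saa1, Serpina3k (0.55), a serine protease inhibitor, and Orm3, and 2 fell, Hamp2 (-0.85), a hepcidin copy, and Il1rn (-0.65), the interleukin 1 receptor antagonist. Of the 18 genes that fall in the acute phase 1 rose, Rbp4 (0.33), and 2 fell, Serpina6 (-0.59), the cortisol-binding globulin, and Serpina7 (-0.70), the thyroxine-binding globulin. Of the 28 signalling genes 0 rose and 1 fell, Socs2 (-1.01), a target and inhibitor of growth hormone signalling, and of the 18 glucocorticoid-responsive genes 0 rose and 1 fell, Sgk1 (-0.52). Over all genes 4.01% rose and 2.82% fell, and with so few calls a list these counts show nothing particular to the lists.

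Animal and library numbers follow the order in which the animals and libraries were numbered, and were tested as descriptions of the series. Per 100 animal numbers, 856 of 11436 genes rose (7.49%) and 770 fell (6.73%) in limma. Of the 10 listed genes 3 rose and 1 fell. Lcn2 rose by 0.85 ± 0.23 log2 units (adjusted p = 0.0088), Hp by 0.21 ± 0.06 (adjusted p = 0.022) and Apcs by 0.25 ± 0.08 (adjusted p = 0.030). Saa4 fell by 0.40 ± 0.11 (adjusted p = 0.0089). The call of Apcs was lost without library 3 or library 4, at an adjusted p of up to 0.060. The genes that paired with Hp thus all rose with the animal number. Saa1 (-0.48 ± 0.29, adjusted p = 0.28) and the other 5 did not pass. Orm3 rose by 0.69 ± 0.20 (adjusted p = 0.015).

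The relations to animal number were of similar size by rank, with rho of 0.55 for Lcn2, 0.56 for Hp, 0.43 for Apcs and -0.50 for Saa4 (permutation p adjusted over 10 genes of 0.0002, 0.0002, 0.0061 and 0.001). Within libraries 1 to 30, r was 0.54 for Lcn2, 0.54 for Hp, 0.48 for Apcs and -0.46 for Saa4, and within libraries 31 to 59 it was 0.44, 0.29, 0.25 and -0.41. What the animal number stands for is not given in the sources used here. In the same fit 6 of the 29 other rising acute-phase genes rose and 0 fell, with Itih3, Serpina3n, Serpina3m and Mt1 the most abundant of them. Of the 18 genes that fall in the acute phase 4 rose and 0 fell, namely Alb (0.26), Ahsg (0.20), Hrg (0.13) and Apoa4 (1.21), so genes of both lists rose. Of the 28 signalling genes 3 rose and 8 fell. The most abundant of the called ones, Hnf4a (-0.23), Lifr (-0.22), Il1rap (-0.11) and Pim3 (-0.56), all fell. These list counts stand against 7.49% of all genes that rose and 6.73% that fell. The summed neutrophil markers gave r = 0.46 with Lcn2, a gene that neutrophils also express, and the summed stellate cell markers 0.52. All 4 red blood cell markers rose with the animal number, by 0.64 to 0.74, as did 2 of the 5 stellate cell markers, and their part in these relations was not tested.

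Between the libraries numbered 31 to 59 and those numbered 1 to 30, 1542 of 11436 genes differed (13.5%), with 3333 at an unadjusted p under 0.05 in limma. Of the 10 listed genes 0 passed in limma, with 2 at an unadjusted p under 0.05 and 0 by edgeR. Saa1 was 0.67 ± 0.29 log2 units higher in the libraries numbered 31 to 59 (adjusted p = 0.11), with medians of 54.4 and 33.6 and ranges of 16.5 to 660 and 13.95 to 457 that overlapped over most of their length. Saa4 was 0.27 ± 0.12 higher (adjusted p = 0.11). Leaving out library 16 alone brought Saa1 (0.81, adjusted p = 0.025) and Saa2 (0.66, adjusted p = 0.040) under the threshold. The counted reads had little relation to these genes, with r between -0.08 and 0.10 for all but Apcs (0.30).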

How the data were processed

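Reads from 50 liver libraries (stranded, polyadenylated RNA) were trimmed, aligned by the authors to GRCm38.p5 with HISAT2, counted per gene with HTSeq 0.11.1 and normalised with edgeR after low counts were removed. The strand setting is not given in the sources used here. The deposited values are a normalised signal, normalised CPM on a scaled library size. Dividing by the value of 1 read gave whole reads for 100% of values within 0.01. Samples were mapped by title.

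The members and lists were chosen with earlier results of these data known. Fits used limma 3.58.1 (R 4.3.3) on log2(value + 0.5) for the 11436 genes whose mean was 1 or more, 2-sided, with Benjamini-Hochberg adjustment at 0.05. The fits were tested on simulated counts, drawn independently for each gene with the same spread setting for all. Such counts check the code, and not how the fits behave for genes as variable or as related as those listed. edgeR 4.0.16 on whole reads and DESeq2 1.42.0 size factors (median of ratios) were alternatives. Correlations used 100000 permutations, for which 1e-05 is the smallest possible p. Lengths are those of the first-numbered coding transcript (GENCODE M21). p-values measure the spread between these samples.

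Named genes were the 10 members, Orm3, Crp, at most 4 genes a list (the highest means among those called, or among those tested), the 5 highest and 3 lowest r with Saa1, the 5 highest r with Orm1 and the 3 smallest p on chromosome 4. Other names were chosen after their values were seen. Fits without the 3 libraries highest in Saa1, without each library in turn, within each library number range, with Saa4 as regressor, and with animal number or library range as the only covariate were added after seeing the data. Values of 1 listed signalling gene are not reported here.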

Additional observations from a re-analysis of the deposited data

How the results depend on the processing

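The count of genes called with Saa1 was the least stable value. It was 15, and 26 when only genes with a mean of 5 or more were tested, 31 by edgeR, 68 without the 2 farthest libraries, 99 by rank, 152 without libraries 16, 44 and 47, and 1 and 3 within the library number ranges. Fits with Hp or Saa4 in place of Saa1 ask about another relation, and called 2665 and 2725 genes. Leaving out each library gave 10 to 35, with 35 without library 44, 34 without 36, 32 without 8 and 10 without 15, 24, 29, 31 or 38. The listed genes called with Saa1 were 4, and 2 without the 2 farthest or 3 highest libraries, 1 within libraries 1 to 30, and between 3 and 5 when each library was left out. With Hp in place of Saa1, 2 listed genes were called. By rank of Saa1 it was also 4, but Saa4 (adjusted p = 0.0068 by limma) and Saa3 (0.037) were called in place of Orm2 (0.10) and Hpx (0.14), and with a mean of 5 or more it was 5, with Saa4 added (0.048). With Orm1 alone 4 listed genes were called, against 1. For library number, 889 genes were called with counted reads as a covariate, against 1542, and leaving out each library gave 1279 to 2440 genes (2440 without library 44) and 0 to 2 listed genes (2 without library 16).

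None of the slopes that changed sign passed the threshold under either setting. With Saa1 they were Hp (-0.039 without the 3 libraries, -0.0043 within libraries 1 to 30) and Apcs (-0.016 without the 2 farthest, -0.0012 by rank, -0.097 without the 3, -0.041 within libraries 1 to 30). With Orm1 alone they were Saa3 (0.20), Hpx (0.12) and Lcn2 (0.34), and beside Saa1 they were Hp (-0.0074, -0.024 and -0.019) and Apcs (-0.056 and -0.054) without the 2 farthest in Orm1 (Hp only), with both numbers as covariates and without the 3. Others were Hp with library number (0.013 with animal number as a covariate), Saa2 with animal number (0.17 by edgeR) and the difference in the Saa2 slope between number ranges (-0.00089 with counted reads). The cause was not tested. No paired analysis was possible because all libraries form 1 group.

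Saa3 and Orm3 rest on the fewest reads, and counting error takes the largest part of their variance. The libraries highest in Saa1 limit what can be said of Orm1, Orm2 and Hpx.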

Other observations

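The genes most like the other members were read after their values were seen and are given as descriptions over 50 libraries, without a p. Saa3 had its highest r with Cd74 (0.61), H2-Aa (0.57) and H2-Eb1 (0.57), which take part in class II antigen presentation by macrophages, dendritic cells and B cells, and r was 0.62, 0.59 and 0.59 without libraries 16, 44 and 47. None of these 3 was among the 8 genes with the highest r with Saa1. Cd74 was among those 8 for Hpx, at r = 0.59, and 0.53 without libraries 16, 44 and 47. Saa3 and Hpx themselves gave r = 0.51 and rho = 0.51, and r was 0.44 without those libraries. The highest r of Hp was with Lrg1 (0.73), a leucine-rich glycoprotein of the acute phase, Ethe1 (0.72), a mitochondrial sulfur dioxygenase, and Cyp3a13 (0.72), a cytochrome P450, and its lowest was with Ppara (-0.78), the fatty acid sensing nuclear receptor. Lcn2 had its highest r with Cyp3a13 as well (0.68), and with Mt1 (0.63) among the first 8.

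Saa4 had r = 0.75 with C9 and 0.74 with Dgat2, an enzyme of triglyceride synthesis, and its lowest r was with Fam84b (-0.76) and Elovl5 (-0.74), a fatty acid elongase. Apcs had its highest r with Nit1 (0.75), an amidase gene that also lies on chromosome 1, and with Ahsg (0.72). The pattern of the constitutive Saa4 therefore had C9 in common with that of Saa1, while Hp and Lcn2 had Cyp3a13 in common.

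The livers that share an animal number gave unlike values for some members. Libraries 8 and 10 held 32.5 and 61.2 for Apcs and 2582 and 3246 for Hp. Libraries 22 and 55 held 149 and 241 for Saa4 and 22.03 and 13.4 for Lcn2. Whether these are the same animals is not given in the sources used here.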
